A study of Mus musculus with 20 samples.

Results

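Maturation of the brain without Katnal2 was followed from P21 to P70, that is, from the third to the tenth week after birth. The comparison used 10 of the 20 mice of the study, 5 male Katnal2-KO mice aged 3 weeks (P21) against 5 male Katnal2-KO mice aged 10 weeks (P70), and 17641 of the 19463 genes listed, namely those with a mean normalized count of at least 10 over the KO mice. All 20 mice were on a C57BL/6J background, whole brains were sequenced, and the other 10 were WT mice of the same sex and ages, 5 at each age. The KO allele came from a EUCOMM stem cell line. The targeted line had been backcrossed to C57BL/6J, crossed to Protamine-Flp mice and treated as early embryos with HTNC, a Cre recombinase that enters cells, which removed exon 3 and shifted the reading frame. The deletion is therefore constitutive and present in all cells of the body, so the values do not separate what is lost in the brain from what is lost elsewhere. The study checked the loss of the protein in testis, not in brain. Each mouse gave 1 library at 1 age, so the P21 and P70 mice are different animals.

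Katnal2 is a katanin-like member of the AAA ATPase family, whose best known members cut microtubules, the protein filaments that form the core of axons and of cilia. Mice are weaned at about the earlier age, when oligodendrocytes, the cells that wrap axons in myelin, are still differentiating in large numbers and are making the cholesterol that myelin needs. By the later age the brain is that of a young adult, most axon tracts are wrapped, the last waves of neurogenesis in the cerebellum have ended, and circuits have exchanged juvenile receptor and transporter types for adult ones.

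The values are normalized counts, that is, estimated reads per gene that the authors scaled so that libraries can be compared. Fold changes compare P70 with P21 on the log2(value + 1) scale, with the standard error (SE), and adjusted p-values are from limma with Benjamini-Hochberg adjustment over the 17641 genes, with a threshold of 0.05. Errors given with means are SD over 5 mice.

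The deposited totals of the KO mice lay between 27310523 and 28423042 normalized counts. The spacing of the low values gives about 26200000 to 35900000 reads at P21 and 23000000 to 27700000 at P70. The P21 libraries were thus deeper than 4 of the 5 P70 libraries, and age and any batch that goes with it cannot be told apart. The P70 mouse with replicate number 5 stood apart from the other KO mice. Its log2 deviations from its group's means had an SD of 0.529, against 0.237 to 0.34 in the other 9 KO mice, and across 17627 genes they followed GC content with a Spearman rho of 0.613, against -0.294 to 0.165. The WT P70 mouse with the same number had the second highest SD of the 20 mice, 0.436, and the deviations of both mice correlated across genes at 0.7, against 0.073 to 0.186 for the other P70 mice that share a number. The part of that mouse in each result was followed by giving the result without it. Litters and days of collection are not given in the sources used here, so p-values measure the spread between these mice.

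From P21 to P70, 1467 genes changed in Katnal2-KO brains at an adjusted p under 0.05, which is 8.32% of the genes tested. Of these, 667 rose (3.78%) and 800 fell (4.53%). At least a 2-fold change was seen for 71 genes that rose and 143 that fell. The median log2 fold change of all genes was -0.01. Of the calls, 45.5% were rises, and the share was 55.4% after each mouse was centred on its median (874 rises and 703 falls). The 2 age groups did not overlap for 1925 genes (10.9%), 952 higher and 973 lower at P70, and 1257 of the 1467 called genes were among them.

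Without the P70 replicate 5 mouse, 3759 genes changed (21.3%), 1864 upward (10.6%) and 1895 downward (10.7%), and 1466 of the 1467 genes called with all 10 mice were called again. Removing 1 of the other 9 mice left between 410 and 565 rises and between 486 and 668 falls. The counts fell by more than 1.5 times without P21 replicate 1 (423 rises, 520 falls), P21 replicate 2 (443 and 514) and P21 replicate 4 (410 and 486).

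Katnal2 (ENSMUSG00000025420, chr18:76977148-77047308, GRCm38) was still transcribed in KO brains at both ages. Its normalized count was 96.0, 94.0, 78.1, 81.0 and 95.9 in the P21 mice and 104, 95.1, 100.3, 100.4 and 126 in the P70 mice. The highest value was that of P70 replicate 5, and the age groups overlapped. Katnal2 was not called (log2 fold change 0.24, SE 0.12, adjusted p = 0.262), and an exact two-sided permutation test over the 252 relabellings of the mice gave p = 0.0238, where the smallest p possible is 0.00794. The values are per gene and the deletion covers 1 exon, so they do not check the loss of the protein. The WT means were 107 ± 7.38 at P21 and 122 ± 16.4 at P70.

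The other microtubule-severing enzymes were also not called. None of the 12 katanins and related ATPases tested passed the threshold, and their median log2 fold change was -0.00492. Katna1, which encodes the catalytic subunit of katanin, ranged from 229 to 261 at P21 and 239.7 to 298 at P70 (log2 fold change 0.08, adjusted p = 0.669; exact permutation p = 0.31). Katnal1, the closest relative of Katna1, read 2177, 2274, 2096, 2458 and 2173 in the P21 mice and 2879, 2635, 2365, 2699 and 1599 in the P70 mice. Replicate 5 was the lowest of the P70 mice and the other 4 overlapped the P21 mice in part. The change was not called with all mice (0.10, adjusted p = 0.736; exact permutation p = 0.595) and was called without P70 replicate 5 (0.24, adjusted p = 0.0167). Without that mouse, 2 of the 12 genes rose and 1 fell.

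The genes named next were the 12 with the largest rise and the 12 with the largest fall among called genes with a mean of at least 100 at the age where they were higher and without overlap. Fosb, a subunit of the AP-1 transcription factor that neurons make after activity, rose most. Its normalized count was 148, 138, 134, 108 and 148 in the P21 mice and 1063, 869.9, 605, 745 and 386 in the P70 mice. Every P70 mouse was above every P21 mouse, with replicate 5 the lowest of the P70 mice. The rise was 5.13-fold by the fitted log2 change (log2 fold change 2.36, SE 0.22, adjusted p = 8.17e-05).

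Il33, which encodes a nuclear alarmin cytokine, was 398, 335, 333, 223 and 363 in the P21 mice and 1341, 1569, 1229, 1227 and 1147 in the P70 mice. The age groups were far apart, and the change was 3.98-fold (log2 fold change 1.99, SE 0.14, adjusted p = 1.42e-05). Wnt10a, a Wnt ligand, rose from 74.5 ± 10.4 to 213 ± 43.0 (1.49, adjusted p = 0.000124). Neat1, the long noncoding RNA around which paraspeckles form, rose from 1755 ± 194 to 4398 ± 582 (1.32, adjusted p = 2.36e-05). Chdh, the mitochondrial enzyme that turns choline into betaine aldehyde, rose from 99.6 ± 11.1 to 250.4 ± 36.4 (1.32, adjusted p = 8.25e-05). Ntn5, a netrin family member, rose from 44.8 ± 5.87 to 115 ± 30.6 (1.32, adjusted p = 0.000647), and Fxyd3, a regulator of the sodium pump, rose from 39.4 ± 10.8 to 100.2 ± 23.4 (1.34, adjusted p = 0.00389). The other risers were Egr2, Egr3, Arc and Hspa1b, described with their gene groups, and Gm28438, an unprocessed pseudogene whose reads may belong to a near-identical copy (1.34, adjusted p = 0.00195).

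**Figure D1:**
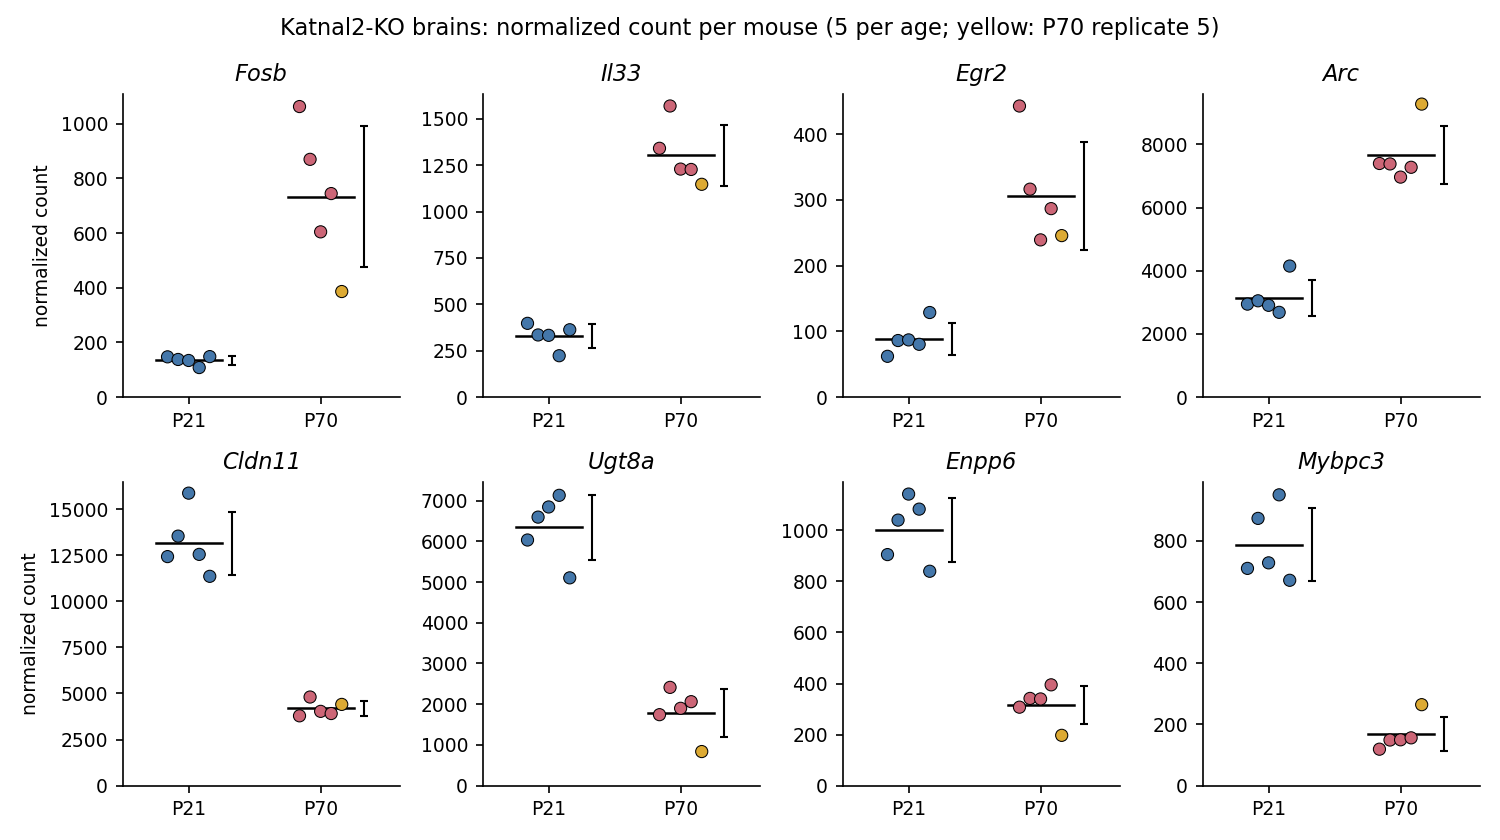
Normalized counts (vertical axes, linear, from 0) of 8 genes in the 5 P21 and 5 P70 Katnal2-KO mice, 1 point per mouse, with a line at the mean and a bar of ± SD to the side; P70 replicate 5 is in yellow. Fosb, Il33, Egr2 and Arc were higher in all P70 mice than in any P21 mouse, and Cldn11, Ugt8a, Enpp6 and Mybpc3 were lower in all of them.

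Among the genes that fell most, 9630013A20Rik (chr14:84458639-84476424), an antisense noncoding RNA, fell furthest. Its normalized count was 425, 428, 536, 619.6 and 416 in the P21 mice and 60.5, 63.3, 50.5, 62.1 and 49.1 in the P70 mice. No P70 mouse came near the lowest P21 mouse, and the fall was 8.30-fold by the fitted log2 change (log2 fold change -3.05, SE 0.14, adjusted p = 4.27e-07). The library kit did not mark strand, so reads of an antisense gene and of the gene on the opposite strand cannot be told apart. Mybpc3, best known as a sarcomere protein of the heart, was 710.1, 874, 728, 950.5 and 671 in the P21 mice and 119, 149, 149.9, 156 and 265 in the P70 mice, and all P70 mice lay below all P21 mice, with replicate 5 the highest of them (log2 fold change -2.26, SE 0.18, adjusted p = 2.8e-05).

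Rab7b, a small GTPase of late endosomes, fell from 194 ± 27.2 to 36.9 ± 14.7 (-2.45, adjusted p = 0.000164). Eln, which encodes the elastic fibre protein elastin, fell from 1158 ± 238 to 319.8 ± 65.0 (-1.85, adjusted p = 5.33e-05). Bc1, a small noncoding RNA that neurons carry into dendrites, fell from 1066 ± 470.4 to 284 ± 79.8 (-1.84, adjusted p = 0.00146), and the P21 mice alone spread from 614 to 1787. Fam83d, a protein of the mitotic spindle, fell from 299 ± 66.6 to 86.4 ± 28.4 (-1.81, adjusted p = 0.000484). Slc45a3, a solute carrier, fell from 186 ± 35.7 to 53.1 ± 11.5 (-1.79, adjusted p = 9.84e-05), and Il12rb1, a subunit of the interleukin-12 receptor, fell from 140 ± 17.4 to 43.8 ± 19.5 (-1.76, adjusted p = 0.0014). Gm37111, a transcript that still awaits experimental support, fell from 308 ± 62.1 to 59.6 ± 7.40 (-2.33, adjusted p = 8.47e-06). Ugt8a, Cldn14 and Gsn, which complete the 12, belong to the myelin group.

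Groups of related genes were described by how many of their members were called, beside the 3.78% of all genes that rose and the 4.53% that fell. Counts without P70 replicate 5 stand beside the larger shares of that fit, 10.6% and 10.7%. In these bulk samples, fewer cells of a type and less RNA per cell cannot be told apart.

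**Figure D2:**
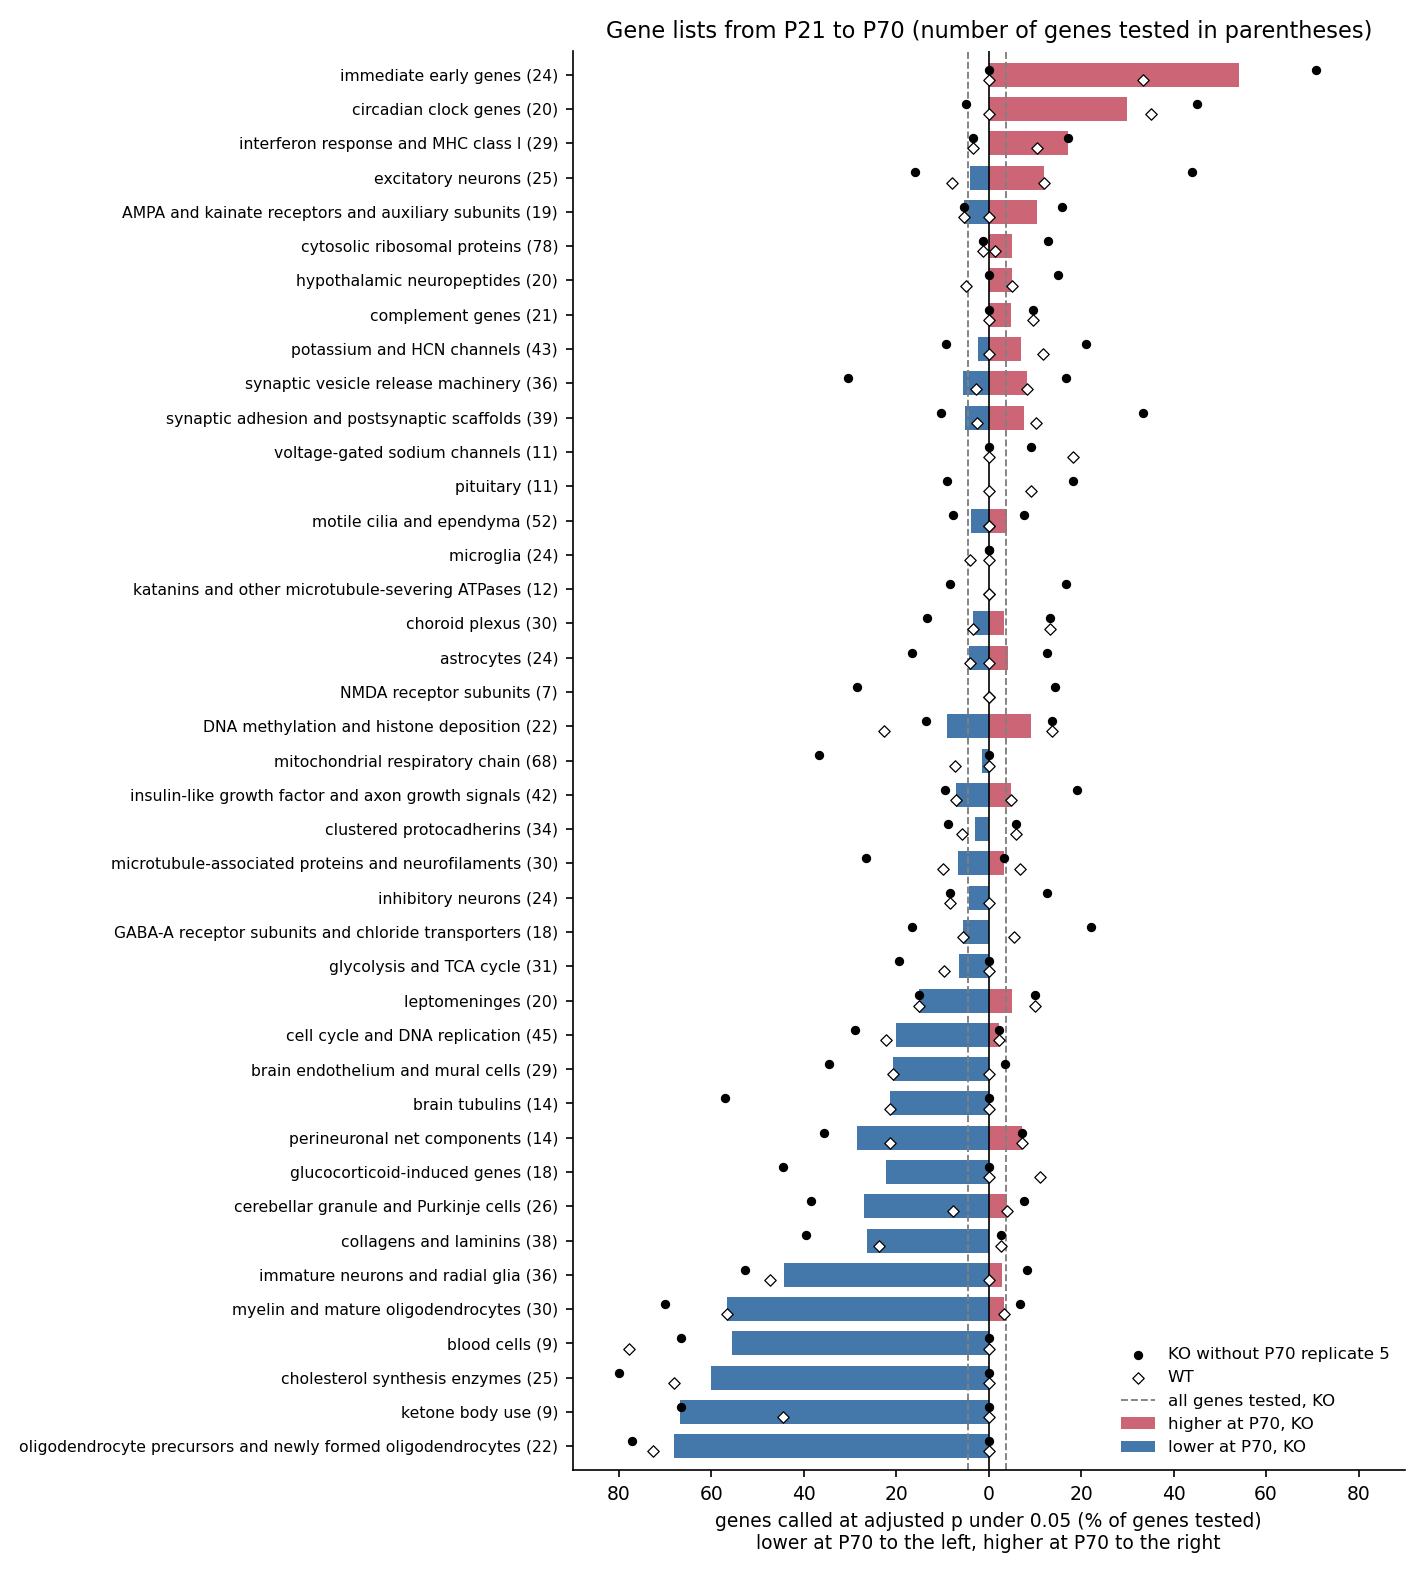
Share of the genes tested in each of 41 gene lists that were called in Katnal2-KO mice (horizontal axis, percent; bars to the left for lower and to the right for higher at P70), with black points for KO without P70 replicate 5, open diamonds for WT and dashed lines at the shares over all genes. Oligodendrocyte, cholesterol, ketone and blood lists reach far to the left and immediate early genes far to the right.

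Genes of myelin and mature oligodendrocytes fell as a rule. Of 30 tested, 17 fell and 1 rose, with a median log2 fold change of -0.69, and 21 fell and 2 rose without P70 replicate 5. The summed level of the list was 485100 to 687700 normalized counts at P21 and 211400 to 270200 at P70. No marker summed to 0 over the mice of an age. Mbp, the myelin basic protein that compacts the sheath, was 167300, 189200, 249400, 183100 and 159300 in the P21 mice and 63330, 88070, 69080, 70820 and 94730 in the P70 mice and did not overlap between ages (log2 fold change -1.29, SE 0.14, adjusted p = 0.000168).

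Cldn11, the claudin that seals the myelin sheath, fell from 13140 ± 1703 to 4188 ± 416 (-1.65, adjusted p = 3.2e-06). Mog, a glycoprotein of the outer myelin surface, fell from 5481 ± 743 to 1752 ± 185 (-1.64, adjusted p = 4.65e-06). Ugt8a, the enzyme that makes the myelin lipid galactosylceramide, fell from 6339 ± 801 to 1791 ± 588 (-1.90, adjusted p = 0.000424). Gsn, the actin-severing protein gelsolin, fell from 7716 ± 1058 to 2306 ± 325 (-1.74, adjusted p = 6.43e-06), and Cldn14, another claudin, fell from 143 ± 25.3 to 43.9 ± 23.8 (-1.83, adjusted p = 0.00359). The 1 member that rose was Qdpr, which regenerates tetrahydrobiopterin, a cofactor of amine synthesis that is not a part of myelin. Its normalized count was 2973, 2939, 3268, 2126 and 3063 in the P21 mice and 3775, 4902, 4397, 4572 and 5257 in the P70 mice, and P21 replicate 4 was the lowest mouse (log2 fold change 0.68, SE 0.12, adjusted p = 0.00416).

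Precursors and newly formed oligodendrocytes showed the same direction. Of 22 genes tested, 15 fell and 0 rose, with a median of -0.67, and 17 fell without P70 replicate 5. Gpr17, a receptor of oligodendrocytes that are about to mature, was 4088, 4571, 5052, 5446 and 3634 in the P21 mice and 1708, 1734, 1764, 1726 and 1733 in the P70 mice. The P70 mice lay close together and below every P21 mouse (log2 fold change -1.38, SE 0.10, adjusted p = 1.42e-05). Enpp6, a choline phosphodiesterase that marks newly formed oligodendrocytes, was 905, 1040, 1142, 1083 and 839.7 in the P21 mice and 307, 342, 339.6, 395 and 197 in the P70 mice, and replicate 5 was the lowest P70 mouse (log2 fold change -1.69, SE 0.16, adjusted p = 9.84e-05). Pdgfra, the growth factor receptor of the precursors, was 1875, 2079, 2075, 2136 and 1779 in the P21 mice and 1420, 1479, 1369, 1236 and 926 in the P70 mice, a smaller change than that of Enpp6 in these mice (log2 fold change -0.64, SE 0.12, adjusted p = 0.00533). Rnf122, a ubiquitin ligase on the same list, fell from 599 ± 87.4 to 253 ± 21.5 (-1.23, adjusted p = 5.33e-05).

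**Figure D3:**
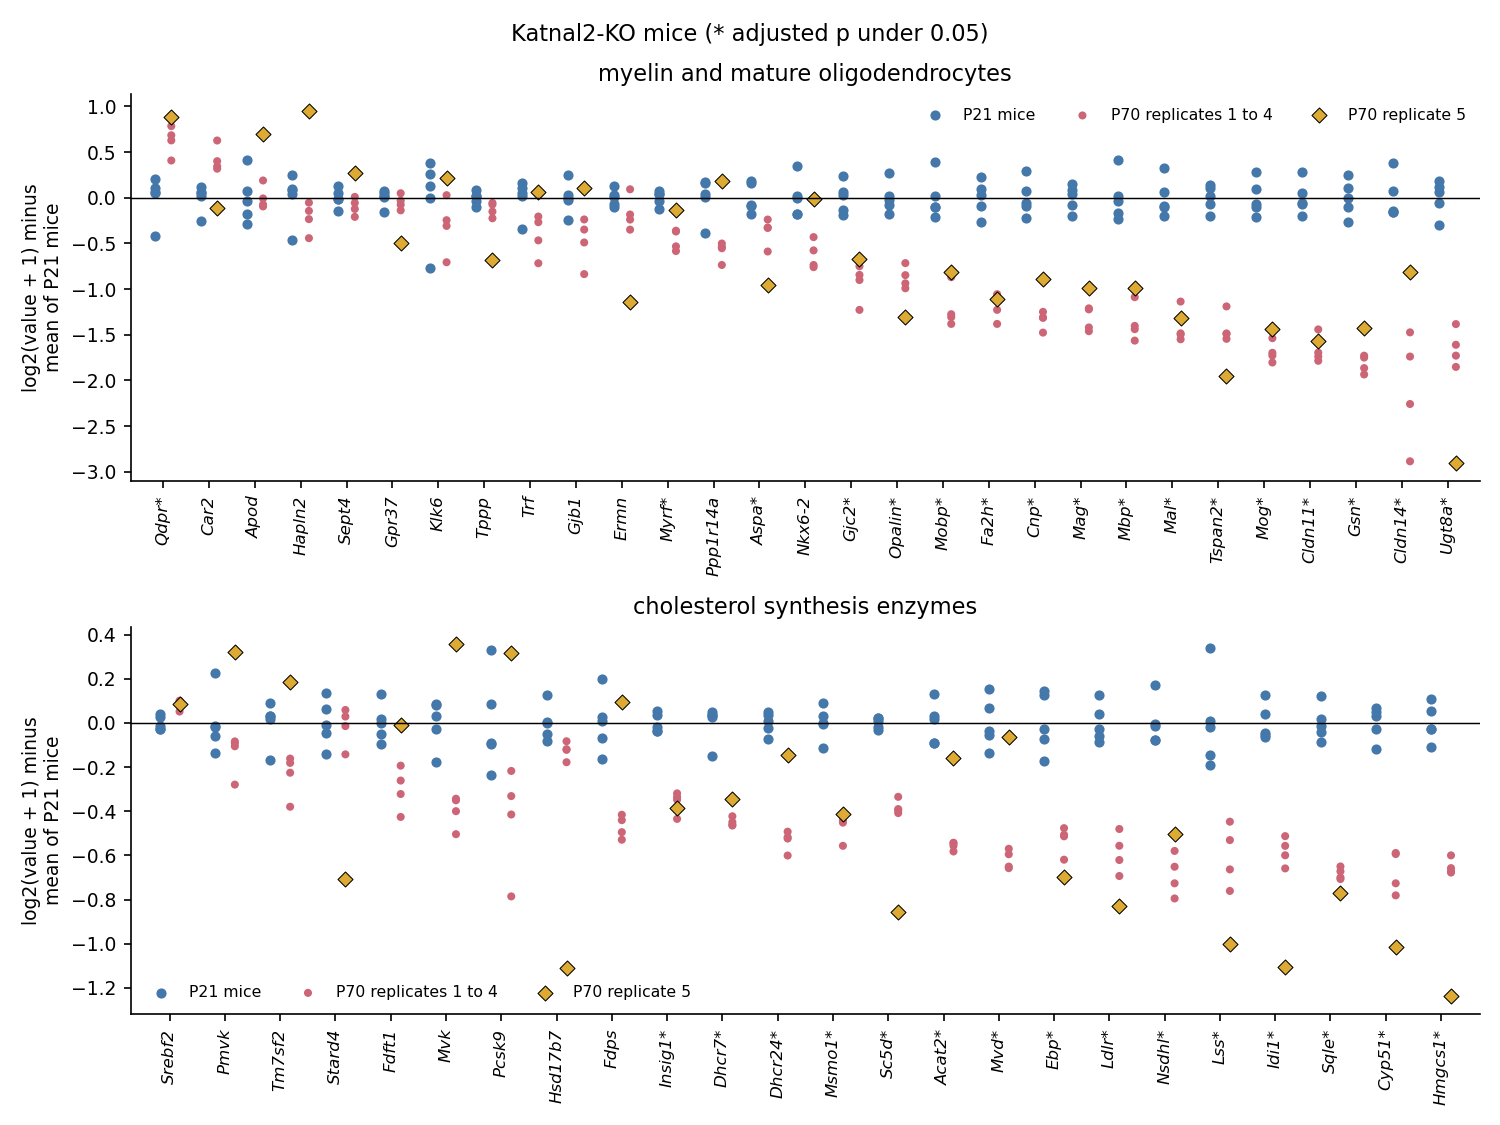
Log2(value + 1) of genes of the myelin list (upper panel) and of the cholesterol list (lower panel) in each Katnal2-KO mouse, minus the mean of the P21 mice (vertical axes), with P70 replicate 5 as a diamond and an asterisk on genes called at an adjusted p under 0.05. Most genes of both lists lie below 0 at P70, and Qdpr lies above it.

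Enzymes of cholesterol synthesis fell together. Of 25 genes tested, which include regulators of the pathway, 15 fell and 0 rose, and the median was -0.46. Without P70 replicate 5, 20 fell. Sqle, which adds the first oxygen to squalene, was 2325, 2370, 2604, 2418 and 2250 in the P21 mice and 1523, 1471, 1500, 1464 and 1400 in the P70 mice. Neither group varied much, and every P70 mouse lay below every P21 mouse (log2 fold change -0.70, SE 0.06, adjusted p = 4.53e-05). Hmgcs1, which makes the HMG-CoA from which the pathway starts, was 9514, 9520, 10450, 10060 and 9001 in the P21 mice and 6397, 6061, 6146, 6083 and 4108 in the P70 mice, and replicate 5 was the lowest P70 mouse by far (log2 fold change -0.77, SE 0.11, adjusted p = 0.00118).

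Cyp51, the lanosterol demethylase, fell from 2719 ± 140.4 to 1634 ± 189 (-0.74, adjusted p = 0.00029). Nsdhl, which acts later in the pathway, fell from 731 ± 54.2 to 466 ± 37.4 (-0.65, adjusted p = 0.000488). Idi1, the isomerase that makes the second building block of the isoprenoid chain, fell from 2178 ± 127 to 1365 ± 206 (-0.69, adjusted p = 0.00179).

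Genes for the use of ketone bodies, a fuel of the suckling brain, also fell. Of 9 tested, 6 fell and 0 rose, the median was -0.43, and 6 fell without P70 replicate 5. Aacs, which activates acetoacetate for lipid synthesis, was 1708, 1772, 1820, 1889 and 1794 in the P21 mice and 1243, 1179, 1352, 1323 and 1484 in the P70 mice (log2 fold change -0.45, SE 0.07, adjusted p = 0.00216). Oxct1, which activates it for oxidation in mitochondria, was 9763, 10340, 11760, 10690 and 9591 in the P21 mice and 8084, 8149, 7773, 7628 and 6997 in the P70 mice (log2 fold change -0.43, SE 0.07, adjusted p = 0.00271). For both genes the age groups did not overlap. Bdh1, Slc16a1 and Cpt1a were called as well. Of 31 genes of glycolysis and the TCA cycle, 2 fell, Pdhb and Dlat, both subunits of the pyruvate dehydrogenase complex. In that list 6 fell without P70 replicate 5, and 1 fell without any 1 of P21 replicates 1 to 5 or P70 replicates 3 and 4. Pdhb moved from 3634 ± 167 to 2978 ± 86.7 (-0.29, adjusted p = 0.0076). The median of that list was -0.01, that of all genes.

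Promoter sequences are shown for genes of cholesterol synthesis, where all calls were falls, and for immediate early genes, where all calls were rises, since members of each moved together. They are RefSeq sequences of GRCm38.p6, 5′ to 3′ on the gene's strand, from 250 bases before to 50 bases after the transcription start. Capitals mark CCAAT boxes, read here on the opposite strand as ATTGG, and 1 sterol element of the letters TCACNCCAC. Hmgcs1 (chr13:119690101-119690400, plus strand) holds 4 CCAAT boxes and the sterol element, and Idi1 (chr13:8885356-8885655, plus strand) holds 2 CCAAT boxes.
Hmgcs1: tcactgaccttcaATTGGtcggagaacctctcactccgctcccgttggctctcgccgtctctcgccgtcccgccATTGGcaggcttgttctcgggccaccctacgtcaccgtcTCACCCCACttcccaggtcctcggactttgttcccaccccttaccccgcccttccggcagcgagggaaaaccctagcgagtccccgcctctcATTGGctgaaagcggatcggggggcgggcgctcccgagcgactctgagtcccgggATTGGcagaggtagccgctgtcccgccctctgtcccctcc
Idi1: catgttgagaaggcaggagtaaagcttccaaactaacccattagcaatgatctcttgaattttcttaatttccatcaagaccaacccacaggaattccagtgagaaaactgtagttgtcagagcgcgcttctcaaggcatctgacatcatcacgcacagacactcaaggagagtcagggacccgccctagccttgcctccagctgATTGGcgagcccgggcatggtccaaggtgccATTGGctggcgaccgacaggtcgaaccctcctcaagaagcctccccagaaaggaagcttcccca
Both strands of all windows of a gene were searched. CCAAT was found in 16 of the 17 cholesterol genes with a promoter sequence (94.1%), against 37.4% of all 32851 promoter windows and 41.1% of the 27025 gene symbols. The sterol element was found in 1 of the 17, Hmgcs1, and in 1.24% of all windows. CCAAT was present in 10 of 22 myelin genes (45.5%) and in 7 of 20 immediate early genes (35%). A match is a run of letters, not evidence of binding.

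Immediate early genes, which neurons switch on within minutes of activity, rose. Of 24 tested, 13 rose and 0 fell, the median was 0.92, and 17 rose without P70 replicate 5. Egr2, a zinc finger transcription factor, was 62.1, 86.1, 87.1, 80.3 and 129 in the P21 mice and 443, 316, 239, 287 and 246 in the P70 mice. Every P70 mouse was above every P21 mouse, and the change was 3.42-fold (log2 fold change 1.77, SE 0.20, adjusted p = 0.000288). Egr3, its paralog, was 1455, 1669, 1559, 1839 and 1737 in the P21 mice and 5392, 5131, 5351, 5557 and 2395 in the P70 mice. Replicate 5 stood between the P21 mice and the other P70 mice (log2 fold change 1.47, SE 0.20, adjusted p = 0.000849; without replicate 5 1.70, adjusted p = 4.1e-08).

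Arc, whose protein forms capsids and acts at synapses, was 2945, 3050, 2907, 2685 and 4150 in the P21 mice and 7396, 7382, 6965, 7276 and 9276 in the P70 mice. Replicate 5 was the highest mouse at each age (log2 fold change 1.29, SE 0.12, adjusted p = 6.12e-05). Fos, the AP-1 subunit most used as a marker of active neurons, was 450.3, 491, 487, 489 and 786 in the P21 mice and 1535, 1388, 997, 1122 and 1045 in the P70 mice, with P21 replicate 5 well above the other P21 mice and below all P70 mice (log2 fold change 1.18, SE 0.16, adjusted p = 0.000896). Npas4, a transcription factor that responds to calcium entry, was 272, 307, 247, 379 and 422 in the P21 mice and 715, 633, 635, 669 and 683 in the P70 mice (log2 fold change 1.06, SE 0.13, adjusted p = 0.000531). Egr1 rose from 4164 ± 569.8 to 8510 ± 1171 (1.03, adjusted p = 0.000214), Egr4 rose from 589 ± 61.2 to 1221 ± 174 (1.04, adjusted p = 0.000171) and the nuclear receptor Nr4a1 rose from 1622 ± 337 to 3054 ± 165 (0.93, adjusted p = 0.000419).

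Homer1, whose short form is induced by activity, depended on 1 mouse. Its normalized count was 3134, 3160, 2815, 3772 and 3126 in the P21 mice and 7145, 6759, 6590, 6665 and 2265 in the P70 mice. P70 replicates 1 to 4 lay between 6590 and 7145, whereas replicate 5 lay below all P21 mice. The change was not called with all mice (0.77, adjusted p = 0.099) and was called without replicate 5 (1.09, adjusted p = 1.76e-06). The values are per gene, so the short form was not measured separately.

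**Figure D4:**
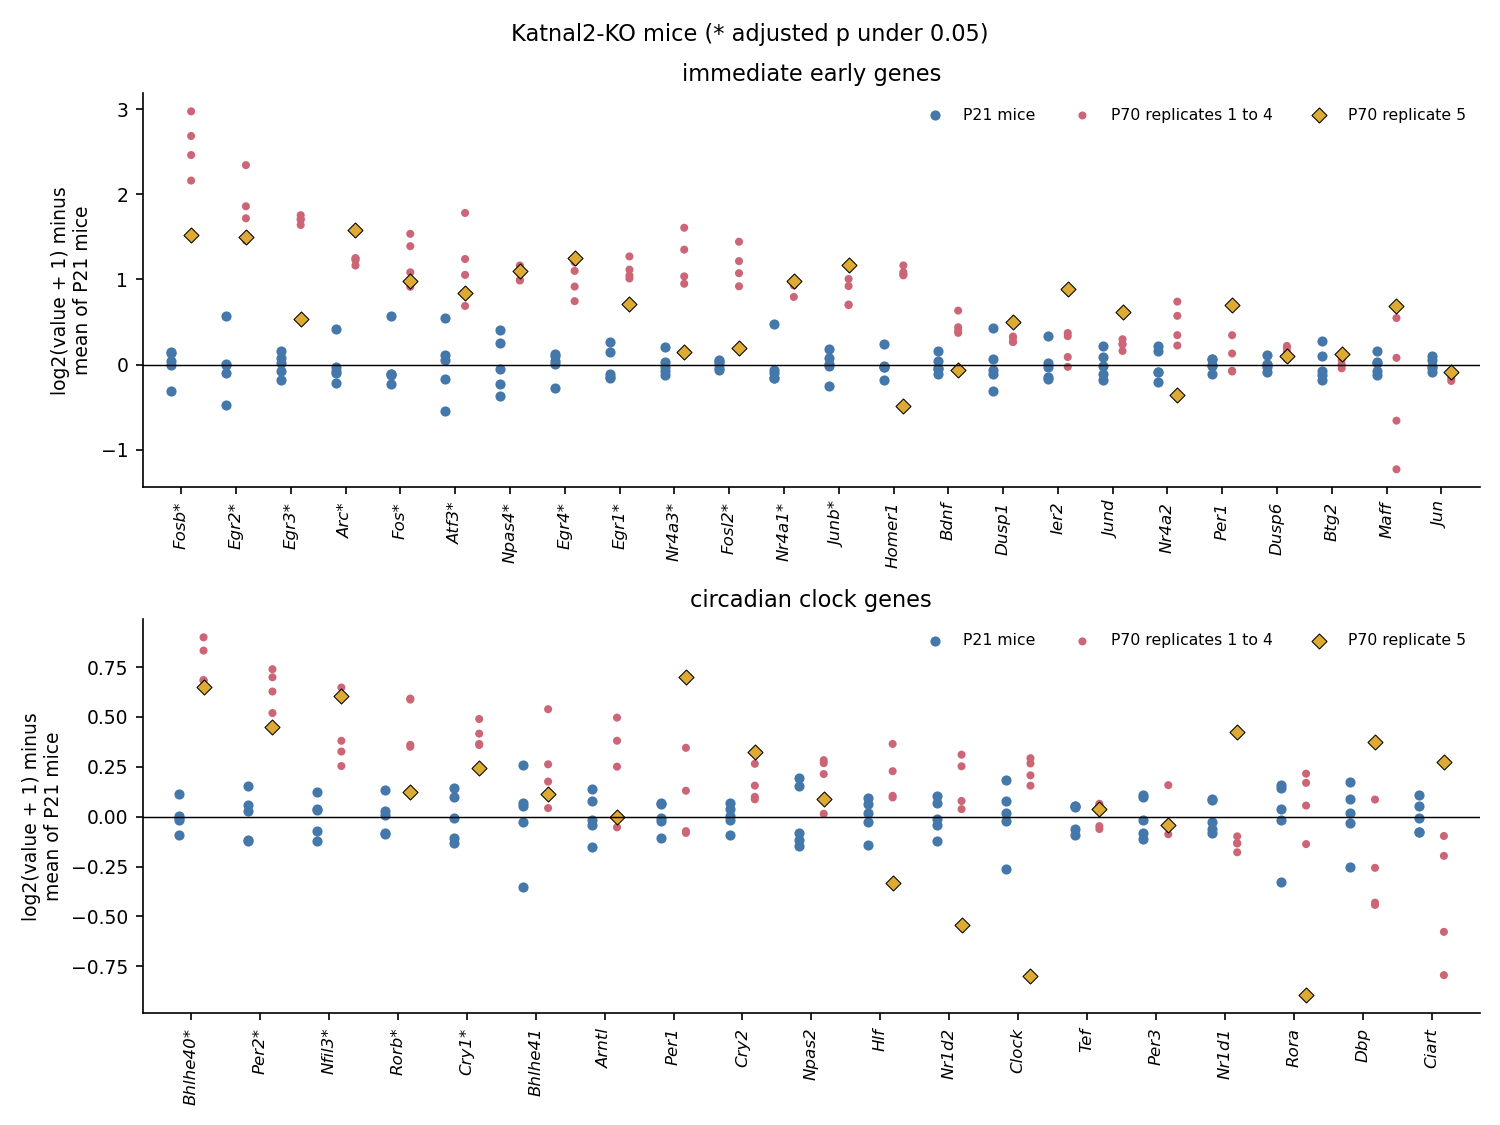
Log2(value + 1) of immediate early genes (upper panel) and circadian clock genes (lower panel) in each Katnal2-KO mouse, minus the mean of the P21 mice (vertical axes), with P70 replicate 5 as a diamond and an asterisk on genes called at an adjusted p under 0.05. Fosb lies furthest above 0, and P70 replicate 5 lies apart from the other P70 mice for Egr3 and Homer1.

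The promoters of Fos (chr12:85473640-85473939, plus strand), Egr2 (chr10:67537619-67537918, plus strand) and Npas4 (chr19:4989922-4990221, minus strand) carry the core of the cAMP response element, TGACGT or ACGTCA by strand, in capitals. In Egr2 the other run of capitals is a CArG box, the letters that serum response factor binds. Other windows of Egr2 were searched too, and that at chr10:67535249-67535548 held neither motif. The window at chr10:67537316-67537615 held a CArG box and no cAMP element core.
Fos: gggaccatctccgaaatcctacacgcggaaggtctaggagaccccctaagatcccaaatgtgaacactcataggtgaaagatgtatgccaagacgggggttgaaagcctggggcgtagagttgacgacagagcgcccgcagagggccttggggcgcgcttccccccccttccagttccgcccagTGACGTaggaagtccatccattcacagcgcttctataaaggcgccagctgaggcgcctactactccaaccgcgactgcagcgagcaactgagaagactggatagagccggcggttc
Egr2: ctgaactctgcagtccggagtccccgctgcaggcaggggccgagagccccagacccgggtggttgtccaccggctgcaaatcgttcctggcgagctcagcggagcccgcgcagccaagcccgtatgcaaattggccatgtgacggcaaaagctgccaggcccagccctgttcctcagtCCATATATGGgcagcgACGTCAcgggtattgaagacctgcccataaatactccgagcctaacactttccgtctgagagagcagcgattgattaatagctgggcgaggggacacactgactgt
Npas4: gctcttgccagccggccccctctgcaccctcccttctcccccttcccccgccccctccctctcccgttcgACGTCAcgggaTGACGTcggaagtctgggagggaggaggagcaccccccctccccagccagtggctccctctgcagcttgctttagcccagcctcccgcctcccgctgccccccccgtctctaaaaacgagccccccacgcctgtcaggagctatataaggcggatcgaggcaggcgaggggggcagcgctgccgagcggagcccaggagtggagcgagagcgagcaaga
Of the 20 immediate early genes with a promoter sequence, 12 held TGACGT on either strand of any window (60%). The share was 7.51% of all windows and 8.37% of gene symbols. A CArG box was found in 1 of the 20, Egr2, against 1.63% of all windows.

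Circadian clock genes were called in 1 direction. Of 20 tested, 6 rose and 0 fell, with a median of 0.18, and 9 rose and 1 fell without P70 replicate 5. Bhlhe40, a repressor of the clock that activity also induces, was 2022, 2049, 2038, 1921 and 2217 in the P21 mice and 3818, 3646, 3290, 3288 and 3213 in the P70 mice. The groups were far apart for their spread (log2 fold change 0.75, SE 0.07, adjusted p = 6.63e-05). Per2, a core clock gene, was 1485, 1457, 1316, 1314 and 1590 in the P21 mice and 2385, 2319, 2048, 2207 and 1953 in the P70 mice (log2 fold change 0.61, SE 0.08, adjusted p = 0.000631), and no P70 mouse reached down to the P21 mice. Cry1, Nfil3 and Rorb were called as well. The hour at which brains were taken is not given in the sources used here, and whether it differed between ages was not tested.

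Among glucocorticoid-induced genes, 4 of 18 fell and 0 rose, the median was -0.3, and 8 fell without P70 replicate 5. The summed level of the list was 32280 to 47800 at P21, 20970 to 33110 in P70 replicates 1 to 4 and 49050 in P70 replicate 5. Fkbp5, a chaperone of the glucocorticoid receptor and one of its best known targets, was 2054, 2373, 2698, 1920 and 1552 in the P21 mice and 1096, 1110, 1027, 901 and 2158 in the P70 mice. Replicates 1 to 4 of P70 lay below all P21 mice, and replicate 5 lay among them. The difference was -0.80, adjusted p = 0.0387 with all mice and -1.01, adjusted p = 0.000195 without replicate 5. Mt2, a metallothionein, was 4549, 5616, 6623, 4272 and 3773 in the P21 mice and 1979, 2771, 1923, 1648 and 5069 in the P70 mice, and Sult1a1, a sulfotransferase, was 475, 605, 676, 458 and 424 in the P21 mice and 233, 267, 239.9, 239 and 569 in the P70 mice, each with the same order of mice. With all mice the values were -0.99, adjusted p = 0.0389 for Mt2 and -0.84, adjusted p = 0.0443 for Sult1a1. None of the 4 calls, of which the last was Ddit4, held without any 1 of P21 replicates 1 to 4 or P70 replicates 1, 3 and 4, and 1 held without P70 replicate 2. The highest adjusted p of Fkbp5 in these fits was 0.0968.

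Genes of immature neurons and radial glia were called mostly in the downward direction. Of 36 tested, 16 fell and 1 rose, the median was -0.31, and 19 fell and 3 rose without P70 replicate 5, while 2 rose without P21 replicate 4. Marcksl1, a regulator of actin in growing neurites, was 3362, 3927, 4365, 4384 and 3305 in the P21 mice and 1413, 1406, 1504, 1431 and 1805 in the P70 mice. The P70 mice lay far below the P21 mice, with replicate 5 the highest of them (log2 fold change -1.35, SE 0.10, adjusted p = 2.28e-05). Nrep, a protein of regenerating neurons, fell from 6376 ± 383 to 4040 ± 456 (-0.66, adjusted p = 0.000523), and Fabp5, a fatty acid binding protein, fell from 2451 ± 188 to 1741 ± 151 (-0.49, adjusted p = 0.00212). Dcx, the microtubule protein that marks migrating neurons, read 1309, 971, 1005, 1486 and 1244 in the P21 mice and 965, 776, 754, 840 and 404 in the P70 mice. The groups did not overlap, but the adjusted p was 0.05 (log2 fold change -0.72), at the threshold and not under it. It was under it without P70 replicate 1 (0.0366) or replicate 5 (0.00903).

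Eomes, a transcription factor of neuronal precursors and of unipolar brush cells in the cerebellum, was the 1 member that rose. Its normalized count was 115, 114, 139, 108 and 78.4 in the P21 mice and 194, 223, 206, 214 and 184 in the P70 mice, without overlap (log2 fold change 0.90, SE 0.14, adjusted p = 0.00205).

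Of 45 cell cycle and DNA replication genes, 9 fell and 1, Gins2, rose, with a median of -0.28. Without P70 replicate 5, 13 fell. Mki67, the proliferation marker, was 136, 123, 142, 138 and 111 in the P21 mice and 66.6, 61.8, 54.5, 60.6 and 37.8 in the P70 mice. All P70 mice lay below the lowest P21 mouse (log2 fold change -1.22, SE 0.16, adjusted p = 0.000599). Top2a, the topoisomerase of dividing cells, was 108, 96.1, 106, 128 and 75.9 in the P21 mice and 30.6, 26.4, 69.0, 29.5 and 27.7 in the P70 mice, with P70 replicate 3 higher than the other P70 mice (log2 fold change -1.55, SE 0.25, adjusted p = 0.00262). Kif11, a motor of the mitotic spindle, fell from 80.6 ± 7.55 to 39.9 ± 8.71 (-1.02, adjusted p = 0.00333). The call of Gins2 was lost without P21 replicate 1, 2, 4 or 5.

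Tubulins, the building blocks of microtubules, were called in the downward direction. Of 14 brain tubulins, 3 fell and 0 rose, with a median of -0.11, and 8 fell without P70 replicate 5. Tuba1a, the main alpha-tubulin of growing axons, was 36960, 40090, 42640, 39880 and 36940 in the P21 mice and 26210, 27740, 26600, 25880 and 33370 in the P70 mice. Replicate 5 of P70 lay between the other P70 mice and the P21 mice (log2 fold change -0.50, SE 0.08, adjusted p = 0.00217). Tubb2a read 19730, 22160, 22910, 21600 and 21040 in the P21 mice and 14080, 13850, 13920, 12940 and 18900 in the P70 mice in the same order (log2 fold change -0.56, SE 0.09, adjusted p = 0.00354), and Tubb2b fell from 4654 ± 570.2 to 3386 ± 203 (-0.45, adjusted p = 0.00611). Tubulin copies are alike in sequence, so part of their reads may have been assigned to a paralog. Among 30 microtubule-associated proteins and neurofilaments, 1 rose (Mapt) and 2 fell (Map7 and Stmn2, a destabilizer of microtubules in growth cones), and 1 rose and 8 fell without P70 replicate 5. With 1 of the other 9 mice left out, 0 to 2 rose and 1 to 3 fell. Stmn2 fell from 11010 ± 628 to 8784 ± 323 (-0.32, adjusted p = 0.00462).

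Collagens and laminins, which form basement membranes and fibrous matrix, fell in part. Of 38 tested, 10 fell and 0 rose, with a median of -0.2, and 15 fell without P70 replicate 5, while 6 fell without P21 replicate 2. Lamc1, the laminin gamma chain of most basement membranes, was 1610, 1822, 1768, 1763 and 1473 in the P21 mice and 951, 894, 1133, 1097 and 1257 in the P70 mice, and the groups did not overlap (log2 fold change -0.67, SE 0.10, adjusted p = 0.00153). Col4a1, a collagen of vascular basement membrane, was 2259, 2215, 2014, 3253 and 2190 in the P21 mice and 1220, 1247, 1556, 1566 and 1481 in the P70 mice. P21 replicate 4 was the highest mouse and no P70 mouse reached the P21 mice (log2 fold change -0.74, SE 0.13, adjusted p = 0.00358). Col1a2, a fibrillar collagen, fell from 1320 ± 226 to 805 ± 36.1 (-0.70, adjusted p = 0.0022). Col3a1, another fibrillar collagen, fell from 382 ± 91.8 to 193 ± 64.5 (-1.03, adjusted p = 0.0216), and lost its call without P21 replicate 2 (adjusted p = 0.0627), P21 replicate 3 (0.0571) or P70 replicate 1 (0.0522).

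Vascular genes fell in 6 of 29 cases and rose in 0, with a median of -0.15. Without P70 replicate 5, 10 fell. Abcc9, a channel subunit of pericytes, was 328, 307, 309, 418 and 328 in the P21 mice and 229.8, 269, 235, 234 and 199 in the P70 mice without overlap (log2 fold change -0.53, SE 0.11, adjusted p = 0.0107). Slc2a1, the glucose transporter of the blood-brain barrier, was 4775, 4771, 4396, 4698 and 4505 in the P21 mice and 3085, 3359, 2603, 2361 and 4862 in the P70 mice. The P70 mouse with number 5 was above all P21 mice, and the other P70 mice were below all of them. Slc2a1 was called with all mice (-0.55, adjusted p = 0.0459) and without replicate 5 (-0.71, adjusted p = 0.000133). It was not called without any 1 of the other 9 mice (adjusted p up to 0.111). Mfsd2a, the lipid transporter of the barrier, was 1368, 1521, 1576, 1527 and 1183 in the P21 mice and 679.6, 889.5, 630.3, 608 and 1512 in the P70 mice, and replicate 5 lay among the P21 mice, with the other P70 mice below them (-0.81, adjusted p = 0.035; without replicate 5 -1.04, adjusted p = 5.93e-05). Its call was lost without any 1 of P21 replicates 1 to 4 or P70 replicates 1 to 4 (adjusted p up to 0.0875). The count of the list was 1 without P21 replicate 1, 2 without P21 replicate 4 or 5 or P70 replicate 3, and 3 without P21 replicate 2 or 3 or P70 replicate 1 or 4.

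Neurotransmitter receptor genes had few calls. None of the 7 NMDA receptor subunits was called, and 1 rose and 2 fell without P70 replicate 5. Grin2a, the adult type subunit, read 4389, 4118, 3262, 5069 and 4608 in the P21 mice and 6281, 5361, 5384, 5558 and 3582 in the P70 mice, and Grin2b, the juvenile type, read 11770, 10790, 7955, 15270 and 12510 in the P21 mice and 15520, 13460, 13930, 13210 and 5510 in the P70 mice. Replicate 5 was the lowest P70 mouse for both. Neither was called with all mice (0.28, adjusted p = 0.295 for Grin2a and 0.03, adjusted p = 0.968 for Grin2b), and Grin2a was called without replicate 5 (0.41, adjusted p = 0.0141). The log2 ratio of Grin2a to Grin2b within each mouse was -1.42, -1.39, -1.29, -1.59 and -1.44 at P21 and -1.3, -1.33, -1.37, -1.25 and -0.62 at P70. The means differed by 0.25, and the groups overlapped.

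Of 19 AMPA and kainate receptor genes, 2 rose, the auxiliary subunits Cacng2 and Cacng8, and 1 fell, with a median of -0.05. The 2 rises were lost without any 1 of P21 replicates 1 to 5 or P70 replicates 2 to 4, and 1 was lost without P70 replicate 1. Grik1, a kainate receptor subunit, was 616, 507, 652, 656 and 637 in the P21 mice and 458, 464, 411, 411 and 443 in the P70 mice, and all P70 mice were below all P21 mice (log2 fold change -0.48, SE 0.09, adjusted p = 0.00492). Among 18 GABA-A receptor and chloride transporter genes, 1 fell and 0 rose, with a median of -0.1, and 4 rose and 3 fell without P70 replicate 5, while 2 fell without P70 replicate 1. The gene that fell was Gabre, which encodes the epsilon subunit. It read 100.1, 109, 110.1, 146 and 103 in the P21 mice and 59.5, 59.4, 42.6, 65.0 and 69.8 in the P70 mice (log2 fold change -0.93, SE 0.16, adjusted p = 0.00333).

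The chloride transporters set the direction of GABA currents, since Slc12a2 (NKCC1) loads neurons with chloride and Slc12a5 (KCC2) extrudes it. Slc12a2 read 3745, 3857, 3776, 3806 and 3692 in the P21 mice and 3158, 3363, 2901, 3041 and 1831 in the P70 mice, without overlap and not called (-0.43, adjusted p = 0.0729). Slc12a5 read 18690, 18330, 15750, 18860 and 20300 in the P21 mice and 21040, 19840, 21200, 21560 and 21930 in the P70 mice, with overlap and not called (0.20, adjusted p = 0.0968). Both passed without P70 replicate 5 (-0.28, adjusted p = 0.0012 for Slc12a2 and 0.19, adjusted p = 0.049 for Slc12a5). The log2 ratio of Slc12a5 to Slc12a2 was 2.32, 2.25, 2.06, 2.31 and 2.46 in the P21 mice and 2.74, 2.56, 2.87, 2.83 and 3.58 in the P70 mice. Every P70 mouse was above every P21 mouse, and the means differed by 0.64 (0.47 without replicate 5).

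In all, 16 ratios of an adult type gene to a juvenile type gene were taken within each mouse, and 2 of them did not overlap between ages. The other was Hapln4 to Hapln1, link proteins of the extracellular matrix, with log2 ratios of 2.12, 1.99, 2.38, 1.53 and 2.45 at P21 and 2.63, 2.96, 3.03, 3.02 and 4.04 at P70, a difference of 1.04. Without P70 replicate 5, 6 ratios did not overlap. Among those added were Gabrd to Gabra3 (-0.3), Map1a to Map1b (-0.175) and Nefh to Ina (-0.18), in which the adult type gene was relatively lower at P70. For comparison, the age groups did not overlap for 10.9% of the 17641 single genes with all mice. Without that mouse they did not overlap for 3658 of them.

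Ion channel genes had few calls. None of 11 voltage-gated sodium channels was called, with 1 rise without P70 replicate 5, and the median was 0.03. Of 43 potassium and HCN channels, 3 rose and 1, Kcnj10, fell, with a median of 0.01, and 9 rose and 4 fell without that mouse. Kcns1, a modifier of delayed rectifier channels, was 336, 312, 275, 275 and 336 in the P21 mice and 443, 407, 427, 454 and 554 in the P70 mice. The P70 mice were all above the P21 mice (log2 fold change 0.57, SE 0.10, adjusted p = 0.00487). Kcnj10 kept its call in the fits without P70 replicate 2 or without P70 replicate 5 and lost it without any 1 of the other 8 mice.

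Synaptic genes moved by small amounts. Of 36 genes of vesicle release, 3 rose and 2 fell, with a median of -0.03, and 6 rose and 11 fell without P70 replicate 5. Snap25, a SNARE protein of the vesicle fusion complex, was 53690, 51920, 51890, 51200 and 53840 in the P21 mice and 64430, 63040, 62820, 65200 and 65330 in the P70 mice. The spread was narrow at both ages and the groups did not overlap (log2 fold change 0.29, SE 0.05, adjusted p = 0.00355). Cplx2, a complexin that clamps fusion, rose from 23980 ± 349.5 to 29430 ± 1587 (0.29, adjusted p = 0.00549). Bsn rose as well, and Syn3 and Rims2 fell. The 2 falls were both lost without any 1 of P21 replicates 1, 2, 4 and 5 or P70 replicates 3 and 4, and 1 remained without P21 replicate 3 or P70 replicate 1 or 2. Of 39 adhesion and scaffold genes, 3 rose (Dlgap4, Shank1 and Lrfn2) and 2 fell (Gphn and Cbln1), with a median of 0.03, and 13 rose and 4 fell without P70 replicate 5. With 1 of the other 9 mice left out, 1 or 2 rose and 1 or 2 fell.

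Of 14 components of perineuronal nets, the matrix that forms around neurons as circuits mature, 1 rose and 4 fell, with a median of -0.19. Has3, a hyaluronan synthase, was 156, 163, 156, 168 and 176 in the P21 mice and 102, 81.2, 87.0, 117 and 99.5 in the P70 mice (log2 fold change -0.75, SE 0.12, adjusted p = 0.00179). Vcan, a proteoglycan that oligodendrocyte precursors also make, was 1125, 1153, 1253, 1484 and 924 in the P21 mice and 641, 714, 626, 709.8 and 399 in the P70 mice (log2 fold change -0.95, SE 0.16, adjusted p = 0.00366). For both, no P70 mouse reached the P21 mice. Hapln1 fell from 734 ± 109.9 to 472 ± 111 (-0.66, adjusted p = 0.0315), Tnr fell as well, and Hapln4, a link protein that arrives late, rose from 3126 ± 396 to 4079 ± 487 (0.39, adjusted p = 0.0354). The call of Hapln1 was lost without any 1 of P21 replicates 1 to 4 or P70 replicates 2 to 4 (adjusted p up to 0.0878). That of Hapln4 was lost without any 1 of P21 replicates 1, 2, 4 and 5 or P70 replicates 2 to 4 (up to 0.0823). The list had 2 falls without P21 replicate 1, 2 or 4 or P70 replicate 2, 3 or 4.

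Markers of excitatory neurons rose in 12.0% of cases, against 3.78% of all genes, and markers of inhibitory neurons in 0%. Of 25 excitatory neuron genes, 3 rose and 1, Calb1, fell, with a median of 0.11, and 11 rose and 4 fell without P70 replicate 5. Only 1 of the 3 rises remained without P21 replicate 1 or 2, and the fall was lost without any 1 of P21 replicates 1 to 5 or P70 replicate 4. Nptx1, a neuronal pentraxin that clusters AMPA receptors, was 9324, 10250, 8926, 9173 and 9476 in the P21 mice and 13290, 12740, 12350, 12720 and 11700 in the P70 mice, and all P70 mice were above all P21 mice (log2 fold change 0.41, SE 0.06, adjusted p = 0.00112). Neurod2 and Rorb were the other 2. Of 24 inhibitory neuron genes, 1 fell, Calb2, with a median of -0.02, and 3 rose and 2 fell without P70 replicate 5, while 0 to 2 fell with 1 of the other 9 mice left out. The summed normalized count of the excitatory list was 148000 to 163200 at P21 and 156900 to 165700 at P70. That of the inhibitory list was 62570 to 66360 at P21 and 64810 to 65730 at P70. For both lists the ranges overlapped.

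Cerebellar granule and Purkinje cell genes fell in 7 of 26 cases and 1, Eomes, rose, with a median of -0.15, and 10 fell and 2 rose without P70 replicate 5. Grm4, a glutamate receptor of granule cell axons, was 4812, 4882, 4451, 5006 and 4619 in the P21 mice and 3215, 4053, 3764, 4092 and 3784 in the P70 mice (log2 fold change -0.33, SE 0.07, adjusted p = 0.0148), and Cbln3, a cerebellin of granule cells, was 6071, 6490, 5500, 5845 and 5604 in the P21 mice and 4323, 4979, 4351, 5383 and 4439 in the P70 mice (log2 fold change -0.33, SE 0.08, adjusted p = 0.0195). Neither overlapped between ages. Cbln3 lost its call without P21 replicate 1 (adjusted p = 0.0574), P21 replicate 2 (0.0607) or P70 replicate 3 (0.0565). The list had 2 falls without P21 replicate 2, 3 without P21 replicate 1 or 4 or P70 replicate 3, and 4 without P21 replicate 3 or P70 replicate 1. Its summed level was 89870 to 101600 at P21 and 77270 to 102300 at P70, and these ranges overlapped. Of 20 hypothalamic neuropeptide genes, 1 rose, Pdyn, with a median of 0.01, and 3 rose without P70 replicate 5. With 1 of the other 9 mice left out, between 0 and 3 rose.

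Glial markers other than those of oligodendrocytes gave few calls. Of 24 astrocyte genes, 1 rose and 1 fell, with a median of -0.06, and 3 rose and 4 fell without P70 replicate 5, while 2 fell without P70 replicate 2. Sox9, a transcription factor of astrocytes, was 383, 464, 468, 486 and 455 in the P21 mice and 543, 599, 706, 925 and 680.1 in the P70 mice and did not overlap (log2 fold change 0.59, SE 0.13, adjusted p = 0.0144). Sparc, a matrix protein of glia and vessels, was 19540, 22490, 25510, 23080 and 19320 in the P21 mice and 12110, 15070, 12190, 12510 and 17760 in the P70 mice (log2 fold change -0.67, SE 0.12, adjusted p = 0.00404), also without overlap. Gfap, the intermediate filament of reactive astrocytes, ranged from 4718 to 9561 at P21 and 4617 to 5580 at P70 and was not called (-0.19, adjusted p = 0.551). None of 24 microglial genes was called, with or without P70 replicate 5, and the median was 0.01. P2ry12, the purinergic receptor that marks resting microglia, ranged from 497 to 713 at P21 and 381 to 643 at P70 (-0.25, adjusted p = 0.341).

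Interferon response and MHC class I genes included 5 rises and 0 falls among 29, with a median of 0.17. Tap2, a subunit of the peptide transporter that loads MHC class I, was 144, 171, 162, 154 and 139 in the P21 mice and 247, 257, 250.2, 216 and 267 in the P70 mice. The lowest P70 mouse was above the highest P21 mouse (log2 fold change 0.68, SE 0.10, adjusted p = 0.000991). Xaf1, Tapbp, H2-T23 and Ifit3 were the others. The count was 5 rises and 1 fall without P70 replicate 5, 2 rises without P21 replicate 1 or 4 or P70 replicate 4, and 3 without P70 replicate 2 or 3. Of 21 complement genes, 1 rose, C1ra, and the median was -0.02. The count was 2 without P21 replicate 3, P70 replicate 2 or P70 replicate 5.

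Genes of motile cilia and ependyma, the ciliated cells that line the ventricles, were examined because cilia are built on microtubules, the substrate of katanins. Of 52, 2 rose (Lrrc23 and Ccdc151) and 2 fell (Cfap54 and Tekt4), near the shares of all genes, with a median of 0.15. Without P70 replicate 5, 4 rose and 4 fell. Cfap54, which the central apparatus of cilia needs, was 266, 232, 235, 204 and 231 in the P21 mice and 173, 142, 158, 202 and 108 in the P70 mice (log2 fold change -0.60, SE 0.15, adjusted p = 0.0296). It lost its call without any 1 of P21 replicates 1, 2, 3 and 5 or P70 replicates 2 and 3 (adjusted p up to 0.0812). Across the list, between 0 and 2 rises and 0 or 1 fall remained when 1 of the other 9 mice was left out, with 0 of each without P21 replicate 1, 2 or 5 or P70 replicate 2 or 3. Foxj1, the master regulator of motile cilia, read 314, 327, 412, 324 and 354 in the P21 mice and 349, 324, 392, 334 and 566 in the P70 mice. Replicate 5 of P70 was the highest mouse and the rest overlapped (0.16, adjusted p = 0.591; without replicate 5 0.02, adjusted p = 0.922).

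Markers of tissues that border the brain were read for the whole of each list. No listed marker in the table summed to 0 over the KO mice of an age, and zeros in single mice were not counted. Of 30 choroid plexus genes, 1 rose and 1, Cldn1, fell, with a median of 0.2, and 4 rose and 4 fell without P70 replicate 5. Car12, a carbonic anhydrase, was 323, 392, 328, 346 and 369 in the P21 mice and 604, 554, 650.1, 612 and 471 in the P70 mice and did not overlap (log2 fold change 0.71, SE 0.10, adjusted p = 0.000976). Ttr, the thyroid hormone carrier that the choroid plexus secretes, ranged from 13020 to 25030 at P21 and 13840 to 25190 at P70 (0.26, adjusted p = 0.496). Of 20 leptomeningeal genes, 1 rose (Crabp2) and 3 fell, all of them the collagens Col1a1, Col1a2 and Col3a1. The summed level of the choroid plexus list was 43120 to 61530 at P21 and 40810 to 56590 at P70, and that of the leptomeningeal list was 22420 to 42680 and 32030 to 53210, highest in P70 replicate 5. With 1 of the other 9 mice left out, 1 to 4 choroid plexus genes rose and 0 or 1 fell, and 0 to 3 leptomeningeal genes rose and 2 or 3 fell. The count of choroid plexus rises was 4 without P70 replicate 4 and 2 without P21 replicate 3. None of 11 pituitary genes was called, and 2 rose and 1 fell without P70 replicate 5. Their summed levels were 18360 to 20890 at P21 and 20110 to 27420 at P70. Of the 18 pituitary genes listed, 11 were in the table. The list includes genes that brain neurons also express, so its sum does not measure pituitary content.

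Blood cell genes fell in 5 of the 9 cases tested, with a median of -0.94, and in 6 without P70 replicate 5. Of the 20 genes listed, 11 were under the mean of 10 or absent from the table. Hba-a2, an alpha globin, was 4078, 7032, 10220, 9803 and 5905 in the P21 mice and 2181, 3571, 3329, 2402 and 4041 in the P70 mice. The P70 mice were all below the P21 mice (log2 fold change -1.22, SE 0.25, adjusted p = 0.00953). The summed level of the list was 16610 to 35730 at P21 and 11240 to 16960 at P70, so the level of blood genes moved with age, and its part in other results was not tested. The globin copies Hba-a1, Hba-a2, Hbb-bs and Hbb-bt share reads. The count was 3 without any 1 of P21 replicates 2 to 4 or P70 replicates 1, 3 and 4.

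Growth factor and chromatin genes were called in both directions. Of 42 insulin-like growth factor and axon growth genes, 2 rose and 3 fell, with a median of -0.07, and 8 rose and 4 fell without P70 replicate 5. Igfbp3, a binding protein of insulin-like growth factors, was 723, 759, 771, 1040 and 642 in the P21 mice and 371, 364, 352, 311 and 447 in the P70 mice, with all P70 mice below all P21 mice (log2 fold change -1.08, SE 0.13, adjusted p = 0.000389). Igfbp6, which prefers IGF2, was 338, 348, 423, 314 and 306 in the P21 mice and 525, 575, 649, 619.5 and 718 in the P70 mice, in the opposite order (log2 fold change 0.84, SE 0.11, adjusted p = 0.000628). Efnb1 rose, and Igfbp7 fell. The falls were 1 without P21 replicate 4 or P70 replicate 3 or 4.

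Of 22 genes of DNA methylation and histone deposition, 2 rose (Gadd45a and Gadd45b) and 2 fell (H3f3a and Dnmt3a), with a median of -0.07, and 3 rose and 3 fell without P70 replicate 5. Gadd45a, a stress gene linked to DNA demethylation, was 142, 179.8, 200.1, 173 and 173 in the P21 mice and 216, 237, 275, 263 and 278 in the P70 mice (log2 fold change 0.55, SE 0.11, adjusted p = 0.0103). The other calls were less stable, and 0 to 2 falls and 1 or 2 rises remained when 1 of the other 9 mice was left out, with 0 falls without P21 replicate 2. Of 34 clustered protocadherins, 1 fell, Pcdhga1, and 2 rose and 3 fell without P70 replicate 5. The fall was lost without any 1 of P21 replicates 1 to 5 or P70 replicate 1. Members of that cluster share exons, so their reads are hard to assign.

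Counts of respiratory chain and ribosomal protein genes depended on single mice. Of 68 respiratory chain genes, 1 fell, Ndufa1, and 0 rose, with a median of -0.1, and 25 fell without P70 replicate 5, while 0 or 1 fell with 1 of the other 9 mice left out. Of 78 cytosolic ribosomal protein genes, 4 rose (Rpl14, Rps21, Rpl9 and Rpl27a) and 0 fell, with a median of 0.17. Without P70 replicate 5, 10 rose and 1 fell. The count of rises was 0 without P21 replicate 1 or 4 or P70 replicate 3, 1 without P21 replicate 2 or 5 or P70 replicate 2, and 10 without P21 replicate 3. Ribosomal protein genes have many processed copies, which can share reads.

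The same ages were compared in WT mice to see where the Katnal2-KO brain differed in its maturation. No mouse is shared between the genotypes. In WT, 1643 of 17630 genes changed (9.32%), 815 upward (4.62%) and 828 downward (4.7%). Across the 17437 genes tested in both, the log2 fold changes correlated at a Pearson r of 0.72 and a Spearman rho of 0.732, as a description across genes, which are not independent. Of the 1459 genes among these that were called in KO, 1449 had the same sign in WT and 10 the opposite sign. Both genotypes called 958 genes in the same direction, 65.7% of the KO calls and 58.5% of the 1638 WT calls, and 0 in opposite directions. Without both P70 replicate 5 mice, r was 0.688, rho was 0.71, and 2135 genes were called in both, 57.1% of the KO calls and 71.3% of the WT calls.

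Genes that rose in KO had a median log2 fold change of 0.47 in KO and 0.415 in WT, and genes that fell had medians of -0.54 and -0.435. These genes were chosen by their KO values, so a smaller size in WT follows in part from the choice. The WT medians of the lists were near those in KO for myelin (-0.71), precursors (-0.56), cholesterol synthesis (-0.43), ketone use (-0.43) and immature neurons (-0.32). For immediate early genes the WT median was 0.67, with 8 of 24 called.

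**Figure D5:**
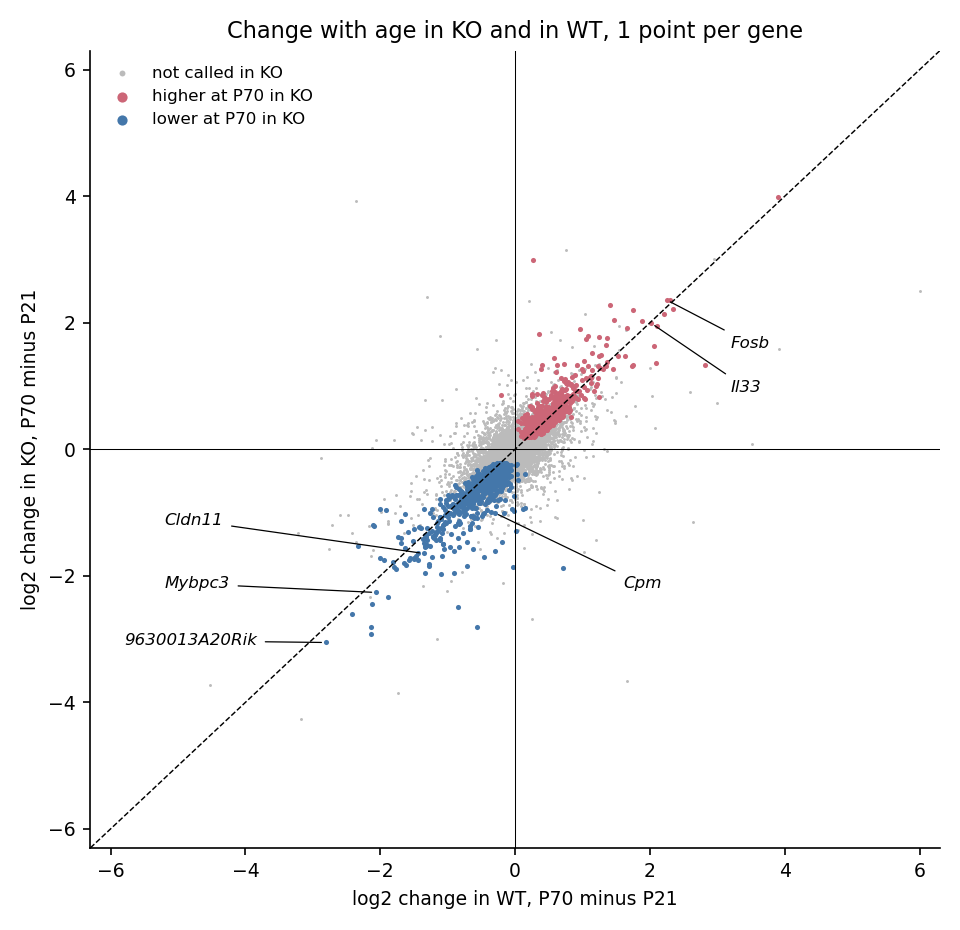
Log2 change from P21 to P70 in WT (horizontal axis) and in Katnal2-KO mice (vertical axis), 1 point per gene, with genes called in KO in red (higher) and blue (lower) and the dashed line where both are equal. Red points lie to the upper right and blue points to the lower left, and Cpm lies further from 0 in KO than in WT.

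The age by genotype interaction tested the difference between the genotypes itself over 17637 genes and all 20 mice. It called 0 genes (0%), with 296 at an unadjusted p under 0.05 and a smallest adjusted p of 0.435. Without both P70 replicate 5 mice it also called 0, with 670 at an unadjusted p under 0.05 and a smallest adjusted p of 0.655. In simulated data of the same size, the interaction test recovered 27.5% of 200 genes that were changed 1.5-fold and 70% of 200 changed 2-fold. A difference of 1.5-fold was thus missed in most of the genes changed in the simulation. Noise was drawn there independently for each gene and mouse, without the deviations that both P70 replicate 5 mice share. The recovery in the real mice can therefore differ.

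The gene with the smallest interaction p was Cpm, a carboxypeptidase on the cell surface. Its normalized count in KO was 708, 843, 864, 732 and 646 in the P21 mice and 369, 396, 340.1, 387 and 389 in the P70 mice, without overlap (log2 fold change -1.0, SE 0.09, adjusted p = 7.03e-05). In WT the means were 651 ± 35.5 at P21 and 529.6 ± 68.1 at P70 (-0.30, adjusted p = 0.058). The difference between the genotypes was -0.70, SE 0.13, adjusted p = 0.435. The next 5 were Flicr, Gm48754, 9330121J05Rik, Cfap46 and Efhd1. Cfap46, a protein of the ciliary central apparatus, read 203, 186, 202, 198 and 222 in the P21 mice and 198, 177, 195, 139 and 194 in the P70 mice in KO (-0.17, adjusted p = 0.4) and 158 ± 16.1 at P21 and 201 ± 13.1 at P70 in WT (0.35, adjusted p = 0.0444), an interaction of -0.52, SE 0.14, adjusted p = 1.0. Efhd1, a mitochondrial calcium-binding protein, had log2 fold changes of -0.27 in KO and 0.15 in WT (-0.42, SE 0.12, adjusted p = 1.0). Flicr, Gm48754 and 9330121J05Rik are annotated as antisense transcripts and were low, with interactions of 1.34, SE 0.34, adjusted p = 1.0, -1.16, SE 0.30, adjusted p = 1.0 and -2.59, SE 0.66, adjusted p = 1.0.

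Glucocorticoid-induced genes had a median of -0.3 in KO and 0.22 in WT, where 2 of 18 rose and 0 fell. The median interaction was -0.48, with 1 of 18 at an unadjusted p under 0.05 and 0 called. Blood cell genes had a median of -0.94 in KO and -1.93 in WT, where 7 of 9 fell, and 5 of 9 had an interaction p under 0.05 before adjustment and 0 after it. Motile cilia genes had medians of 0.15 in KO and 0.1 in WT, where 0 of 52 were called.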

How the data were processed

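RNA-seq libraries were made by the authors from whole brains of male mice with a poly-A kit that does not mark strand. The authors aligned the reads to GRCm38 by quasi-mapping in Salmon, switched on its correction for GC bias, summed transcripts to genes through tximport and normalized the result in DESeq2. The submitters' processing notes name Salmon 1.1.0, R 3.6.2 and DESeq2 1.26.0. The deposited table holds these normalized counts (unit: signal), 1 column per mouse, and no unnormalized counts. Columns were matched to mice by title, and 19447 of 19463 gene IDs matched a symbol in the reference annotation.

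Because the values are normalized, no count model was used. Genes with a mean of at least 10 over the mice compared were fitted on log2(value + 1) with limma 3.58.1 in R 4.3.3 (lmFit, eBayes with an intensity trend). P-values were adjusted by the Benjamini-Hochberg method, and genes under 0.05 were called. The filter and the pseudocount of 1 lessen the fold changes of low genes. KO mice were fitted alone, WT mice alone, and all 20 mice for the age by genotype interaction. Single values were tested by exact permutation. Depth was read from the spacing of the low values of each column, taken as the value of 1 read, and is approximate. Simulated data with known changes and independent noise for each gene and mouse served as a test. The KO fit recovered 57.5% of 200 genes changed 1.5-fold and 80.5% of 200 changed 2-fold, over 17641 genes.

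Named genes were Katnal2, Katna1 and Katnal1, the 12 largest rises and falls among called genes without overlap and with a mean of at least 100 at the age where it was higher, up to 3 members per direction of each of the 41 gene lists by adjusted p, the 6 genes with the smallest interaction p, and 16 gene pairs. Other list members were added to describe a list. Counts cover whole lists, and a few members are not reported here by name or drawn. Genes, lists and pairs were chosen with earlier results of these data known. Alternatives covered the variance model, array weights, scaling, low-value filter, pseudocount, a block on the replicate number, a correction for length and GC content, the threshold, and leaving out each mouse. The fits without both P70 replicate 5 mice and the overlap counts without KO P70 replicate 5 were added after seeing the data. Promoter sequences were taken from RefSeq and each motif was searched on both strands.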

Additional observations from a re-analysis of the deposited data

Results flagged for a closer look

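In each age group of 5 KO mice, the gap between the highest or lowest mouse and the next was set against the range of the group for the 115 genes described here, 230 groups in all. Chance marks about 1 group in 20. A mouse stood apart in 30 groups, 18 at P70 and 12 at P21, and in 16 of them it was P70 replicate 5.

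P70 replicate 5 was the lowest P70 mouse for Egr3 at 2395 (the others 5131 to 5557), Homer1 at 2265 (6590 to 7145), Hmgcs1 at 4108 (6061 to 6397), Idi1 at 1010, Grin2b at 5510 and Vcan at 398.7 normalized counts. It was the highest P70 mouse for Arc at 9276, Mybpc3 at 264.7, Marcksl1 at 1805, Tuba1a at 33370, Tubb2a at 18900, Fkbp5 at 2158 (901 to 1110), Sult1a1 at 568.8 (233.3 to 266.7), Hapln4 at 4941, Foxj1 at 565.5 and Hsf4 at 682.5. Its deviations followed GC content, as given with the depth of the libraries, and their part in these values was not tested.

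The other P70 mice that stood apart were replicate 2 for Hspa1b, the highest at 1041, and replicate 3 for Top2a, the highest at 69.0. At P21, replicate 5 was the highest for Arc at 4150, Fos at 786.4 and Nr4a1 at 2220, all of them immediate early genes. P21 replicate 4 was the highest for Col4a1 at 3253, Abcc9 at 418.4 and Gabre at 145.9 and the lowest for Qdpr at 2126. P21 replicate 3 was the highest for Nsdhl at 822.9, Hspb1 at 210.2, Th at 467.6 and Ddc at 682.0. P21 replicate 2 was the lowest for Grik1 at 507.4.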

How the results depend on the processing

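For KO P70 against P21, with 667 rises and 800 falls, array weights gave 2035 and 2133, and a correction for length and GC content gave 1581 and 1338. Counts with 1 mouse left out ranged from 410 to 1864 rises and from 486 to 1895 falls, the highest without P70 replicate 5. At least a 2-fold change left 71 and 143, and an adjusted p under 0.01 left 278 and 337. For WT P70 against P21 (815 and 828), array weights gave 1825 and 1677, the length and GC correction 1487 and 1340, 1 mouse left out 414 to 1569 and 498 to 1431, at least a 2-fold change 82 and 130, and an adjusted p under 0.01 gave 254 and 349. The interaction called 0 genes in each alternative run. Its 296 genes at an unadjusted p under 0.05 became 929 with array weights, 182 with a mean of at least 50, 254 to 665 with 1 mouse left out, and 670 without both P70 replicate 5 mice, an alternative added after seeing the data. Katnal2 was not called by limma in any alternative run.

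The P21 and P70 mice are different animals that share only a replicate number, and the correlations of same-numbered KO mice were 0.0118, -0.0619, -0.122, 0.153 and -0.0804, with replicate 4 alone closest to its own number. A replicate block gave 399 KO rises and 514 falls, and with the length and GC correction 1212 rises, and 453 interaction genes at an unadjusted p under 0.05.

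Of 2733 values of 114 described genes under these alternatives, 2579 kept their direction and side of the threshold, 111 lost the call (80 of them with 1 mouse left out, 11 under the block), 38 gained it and 5 turned in sign. All 5 were of Grin2b, which was near 0: -0.1034 without KO P21 replicate 3, -0.07774 without KO P70 replicate 1, -0.02633 without replicate 2, -0.03887 without replicate 3 and -0.0198 without replicate 4, while it was 0.2957 without replicate 5 and was not called. Of 96 called genes, 80 kept the call throughout. Causes of these changes were not tested. Depth limits genes near the mean of 10, where 1 read was worth 0.77 to 1.192 normalized counts.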

Other observations

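The values of 5 heat shock genes are given here. They were chosen after their values were seen and describe no list. Hspa1b, an inducible Hsp70, was 245, 366, 228, 197 and 250 in the P21 mice and 638, 1041, 522, 542 and 526 in the P70 mice, and all P70 mice were above all P21 mice (log2 fold change 1.32, SE 0.20, adjusted p = 0.00192). Hspa1a, its neighbour and near-identical copy, was 339, 372, 287, 256 and 251 in the P21 mice and 472, 663, 427, 490.3 and 632 in the P70 mice (log2 fold change 0.83, SE 0.15, adjusted p = 0.00482), and reads of these copies can be assigned to either. Hspb1, a small heat shock protein, was 149.6, 161, 210.2, 160.3 and 167 in the P21 mice and 293, 490.1, 278, 302 and 404 in the P70 mice (log2 fold change 1.03, SE 0.16, adjusted p = 0.00207), Hsf4, a heat shock transcription factor, was 234, 186, 221, 162 and 223 in the P21 mice and 385, 408, 386, 419.9 and 682 in the P70 mice (log2 fold change 1.12, SE 0.16, adjusted p = 0.00133), and Hsph1, a co-chaperone of Hsp70, was 6956, 7206, 7436, 6776 and 6772 in the P21 mice and 9018, 10070, 9050, 9163 and 7551 in the P70 mice (log2 fold change 0.35, SE 0.07, adjusted p = 0.0131). For none of the 5 did the ages overlap. The WT log2 fold changes were 1.73 for Hspa1b, 1.24 for Hspa1a, 1.22 for Hspb1, 1.12 for Hsf4 and 0.43 for Hsph1.

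The values of 3 genes of dopamine neurons were also chosen after being seen, and 1 of them was called with all mice. Slc6a3, the dopamine transporter, was 322, 323, 464, 383 and 358 in the P21 mice and 42.5, 268, 113, 109.8 and 285 in the P70 mice, and P70 replicate 1 was the lowest. It was called with all mice (log2 fold change -1.46, SE 0.42, adjusted p = 0.0499) and lost the call without any 1 of P21 replicates 1 to 5 or P70 replicates 3 and 4 (adjusted p up to 0.108). Th, the rate-limiting enzyme of dopamine synthesis, was 344, 319.8, 468, 351 and 349 in the P21 mice and 204, 282, 203, 231 and 419 in the P70 mice and was not called (-0.49, adjusted p = 0.133). Ddc, which acts in the following step, was 504, 507, 682, 489 and 471 in the P21 mice and 285, 361, 324, 329.6 and 542 in the P70 mice and was not called (-0.55, adjusted p = 0.0569). Both passed without P70 replicate 5 (-0.67, adjusted p = 0.00252 for Th and -0.70, adjusted p = 0.000785 for Ddc). In WT, the log2 fold change was -0.71, adjusted p = 0.147 for Slc6a3, -0.35, adjusted p = 0.213 for Th and -0.44, adjusted p = 0.0322 for Ddc, of which Ddc was called. How much midbrain each sample held was not measured.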
